A study of Mus musculus with 6 samples.

Results

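The methylated DNA of microglia from naive mice was described from 2 capture libraries, called library 1 and library 2 here. They were chosen by their labels (naive, MiGS) and make up 2 of the 6 samples of the study. MiGS (MBD-isolated genome sequencing) pulls down DNA fragments with a methyl-CpG binding domain and sequences them. Reads are therefore expected mainly from fragments that carried methylated CpG, and the part from other fragments was not tested. The deposited values cover windows of 50 bp, and 2580415 windows of chromosomes 1 to 19 held reads in at least 1 of the 2 libraries. The mice (Ccr2rfp/+::Cx3cr1gfp/+, C57Bl/6 background) had 1 Ccr2 allele replaced by a red and 1 Cx3cr1 allele by a green fluorescent reporter, and were taken before the induction of experimental autoimmune encephalomyelitis (EAE). An age of 24 to 28 weeks is given for the induction. Cells were taken from brains and, per the extraction protocol, spinal cords, passed over a 30% and 70% Percoll gradient and sorted on F4/80 and CD45. Material of 30 mice was pooled per condition. The study's design text calls the 2 libraries biological replicates, but nothing says which animals went into each, so the spread between them may be partly technical. The sources used here name no input library without capture, so the level of a window could not be set against the DNA present there. The study also sequenced 1 naive RNA library from the same cell preparations. It is used below only to check the cell label and to set capture at promoters and in genes beside expression.

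In mammalian cells most cytosines of CpG pairs carry a methyl group, while the dense clusters of CpG at many gene starts (CpG islands) are mostly kept free of it. Islands that are methylated in body tissues include those of genes reserved for germ cells, and at imprinted genes the copy from 1 parent is methylated. Microglia are the resident macrophages of the brain and spinal cord, and their identity genes include the receptors Cx3cr1 and P2ry12 and the complement genes C1qb and C1qc. Capture by a methyl-CpG binding domain needs several methylated CpG in 1 fragment, so unmethylated DNA and DNA poor in CpG both give few reads.

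The naive RNA library, with 31263153 counts in genes with a symbol, was used to check the label. All 18 microglia genes with a promoter entry had at least 1 FPKM (fragments scaled to gene length and library depth), with a median of 402.5 FPKM. None of the 9 neuron genes and none of the 7 lymphocyte genes reached 1 FPKM. Of the astrocyte genes 5 of 6 reached 1 FPKM, the highest being Slc1a3 with 45.6, and of the oligodendrocyte genes 4 of 6, the highest being Cnp with 18.04. The part of DNA from those cells in the captured reads was not tested.

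The values were whole reads per window divided by 1 factor per library, and reads are used throughout. Because 1 fragment is counted in several neighbouring windows, sums over windows count a fragment more than once. In all, 366 windows with over 2000 reads summed over both libraries were left out. The remaining reads numbered 13757404 in library 1 and 20719493 in library 2. The deposited windows are not all windows with a read. Every one of the 2915907 windows in the study's 4 MiGS files held at least 4 reads in library 1, at least 3 in library 2 or at least 4 in 1 of the 2 libraries from mice with EAE, and none lay below all of these minimums. A window without reads in the text is therefore a window below that minimum in every library or at 0, and counts of 1 or 2 reads are known only where another library passed. Of the naive windows, 27.2% were below the minimum in both naive libraries and were listed through the libraries from mice with EAE, and they held 7.73% of the reads of library 1 and 2.18% of those of library 2.

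Capture at gene starts differed widely between genes, and 6 promoters with many reads or none are shown first. They are the 2 promoters with most reads among germline genes (Rpl10l and Dazl), the 2 with most among imprinted genes (Plagl1 and Nnat), and 2 of the lowest housekeeping promoters (B2m and Eef1a1, the first by name among 13 with no listed read). The sequences are from RefSeq, build GRCm38.p6, run 5′ to 3′ from 250 bases before to 50 bases after the gene start, and have every CpG in capitals. They lie at chr12:66284352-66284651 (minus strand), chr17:50293571-50293870 (minus strand), chr10:13090582-13090881 (plus strand), chr2:157559828-157560127 (plus strand), chr2:122147437-122147736 (plus strand) and chr9:78481675-78481974 (minus strand).
Rpl10l: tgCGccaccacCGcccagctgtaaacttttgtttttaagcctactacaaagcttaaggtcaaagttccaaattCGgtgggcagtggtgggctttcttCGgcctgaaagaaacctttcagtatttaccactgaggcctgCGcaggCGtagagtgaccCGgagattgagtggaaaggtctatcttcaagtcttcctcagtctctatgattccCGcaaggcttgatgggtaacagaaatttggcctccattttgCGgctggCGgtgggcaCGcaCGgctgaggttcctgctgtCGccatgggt
Dazl: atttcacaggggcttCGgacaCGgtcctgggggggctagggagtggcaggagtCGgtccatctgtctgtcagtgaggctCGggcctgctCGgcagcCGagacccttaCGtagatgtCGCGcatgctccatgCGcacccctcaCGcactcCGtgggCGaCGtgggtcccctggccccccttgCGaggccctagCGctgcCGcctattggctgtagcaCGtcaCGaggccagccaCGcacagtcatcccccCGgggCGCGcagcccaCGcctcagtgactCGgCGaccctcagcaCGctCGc
Plagl1: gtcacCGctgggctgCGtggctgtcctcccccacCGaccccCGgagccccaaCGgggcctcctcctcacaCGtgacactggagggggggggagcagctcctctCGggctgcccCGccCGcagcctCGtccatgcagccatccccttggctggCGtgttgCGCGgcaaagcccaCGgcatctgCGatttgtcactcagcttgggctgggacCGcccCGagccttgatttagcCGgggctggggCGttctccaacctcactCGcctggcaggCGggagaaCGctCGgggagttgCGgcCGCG
Nnat: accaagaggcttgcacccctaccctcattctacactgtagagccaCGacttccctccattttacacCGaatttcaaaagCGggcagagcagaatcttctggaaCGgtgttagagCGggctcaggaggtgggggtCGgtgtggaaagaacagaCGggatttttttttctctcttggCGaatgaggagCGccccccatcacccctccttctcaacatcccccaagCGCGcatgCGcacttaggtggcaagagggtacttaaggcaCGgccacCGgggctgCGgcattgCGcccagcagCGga
B2m: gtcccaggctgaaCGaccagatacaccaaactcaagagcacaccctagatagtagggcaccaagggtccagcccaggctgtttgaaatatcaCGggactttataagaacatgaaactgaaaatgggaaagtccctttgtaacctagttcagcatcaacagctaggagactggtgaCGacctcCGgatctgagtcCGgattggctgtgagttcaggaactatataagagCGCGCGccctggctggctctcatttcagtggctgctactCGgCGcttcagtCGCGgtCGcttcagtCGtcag
Eef1a1: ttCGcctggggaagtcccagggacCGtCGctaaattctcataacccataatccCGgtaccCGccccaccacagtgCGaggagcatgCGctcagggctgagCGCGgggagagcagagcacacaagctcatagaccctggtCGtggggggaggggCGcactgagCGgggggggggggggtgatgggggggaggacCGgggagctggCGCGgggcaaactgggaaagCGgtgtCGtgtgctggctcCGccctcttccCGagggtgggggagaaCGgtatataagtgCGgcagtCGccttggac
The letters searched were CG, which read the same on both strands. CpG numbers were 13 in Rpl10l, 28 in Dazl, 26 in Plagl1, 17 in Nnat, 14 in B2m and 22 in Eef1a1. At least as many CpG were held by 39.2%, 14.5%, 17.4%, 32.5%, 37.6% and 23.9% of all promoters of this length, in the same order. The windows of these 300 bases held 131 reads in library 1 and 516 in library 2 at Rpl10l, 239 and 1482 at Dazl, 114 and 627 at Plagl1, and 120 and 364 at Nnat. No window of the 300 bases was listed with a read in either library at B2m or Eef1a1, although their CpG numbers lie within the range of the other 4. B2m, the light chain of class I antigen-presenting molecules, had 1351 FPKM and Eef1a1, a translation elongation factor, had 436 FPKM in the naive RNA.

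Along the 2 kb on both sides of the start, captured reads at these promoters formed hills rather than single spikes. At Dazl, which encodes an RNA-binding protein of germ cells, library 2 rose to 316 reads in the window at the start site and library 1 to 52 reads 100 bp before it. At Rpl10l, a testis copy of a ribosomal protein gene, the highest windows lay inside the gene, 150 bp after the start in library 2 with 358 reads and 300 bp after it in library 1 with 58 reads. Nnat, which encodes neuronatin, had a hill before the start with 38 and 50 reads at its highest window, 500 bp before the start, and in library 2 a larger one inside the gene with 176 reads at 400 bp.

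Promoters were then counted over the genome. A promoter was taken as 1000 bp before to 500 bp after the most upstream start of a gene, and called captured with at least 10 window reads in both libraries. Of 25748 promoters on 18 chromosomes, 3629 were captured, 14.1%, and 62.4% had no listed read in either library. The median promoter had 0 reads in both. With at least 3 reads in both libraries 5494 promoters were captured, with at least 30 reads 2016, and with the 300 bases alone 1077. Promoters on chromosome 18 were not analysed here.

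Captured promoters were most frequent at intermediate CpG numbers. Among promoters with 0 to 2 CpG in the 300 bases, 7.31% were captured, and with 3 to 5 CpG 17.6%. The share was 32.1% with 6 to 9 CpG and 26.0% with 10 to 14. It was 12.1% with 15 to 19 and 6.12% among the 7056 promoters with 20 or more, the CpG-densest class. The classes with 6 to 9 and 10 to 14 CpG also led within the 300 bases themselves, where reads in both libraries were found, from the lowest CpG class to the highest, at 1.42%, 7.28%, 26.4%, 23.1%, 10.1% and 4.83% of promoters.

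The profile around start sites differed between these classes in shape. Mean reads per window over the 300 bases are given first, and then those 4 to 5 kb away from the start. Promoters with 5 or fewer CpG (11097) had a trough, with 0.0657 against 0.300 in library 1 and 0.102 against 0.437 in library 2. Promoters with 6 to 14 CpG (5416) had a peak, with 1.39 against 0.519 and 2.03 against 0.717. For the 9235 promoters with 15 or more CpG the libraries disagreed in direction against that distance: library 1 had 0.366 against 0.494, and library 2 had 1.16 against 0.732. Without the promoter with most reads in that class the values were 0.364 against 0.494 in library 1 and 1.06 against 0.731 in library 2, so the disagreement did not rest on it. Against nearer windows the mean of this class had a local peak at the start in both libraries. Few of its promoters had reads in both libraries within the 300 bases, 10.1% with 15 to 19 CpG and 4.83% with 20 or more. In library 1 the window 50 bp before the start had 0.456 reads, against 0.164 at 400 bp before and 0.175 at 500 bp after. In library 2 these values were 1.67, 0.427 and 0.362. In the 300 bases, the log2 ratio of library 2 over library 1, in RPM (reads per 1000000 reads kept in the library), was -0.37 with 6 to 9 CpG, 0.16 with 10 to 14, 0.68 with 15 to 19 and 1.48 with 20 or more. It was 0.96 with 0 to 2 CpG, a class with a mean of 0.108 reads in library 1 and 0.318 in library 2 in the 300 bases.

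**Figure D1:**
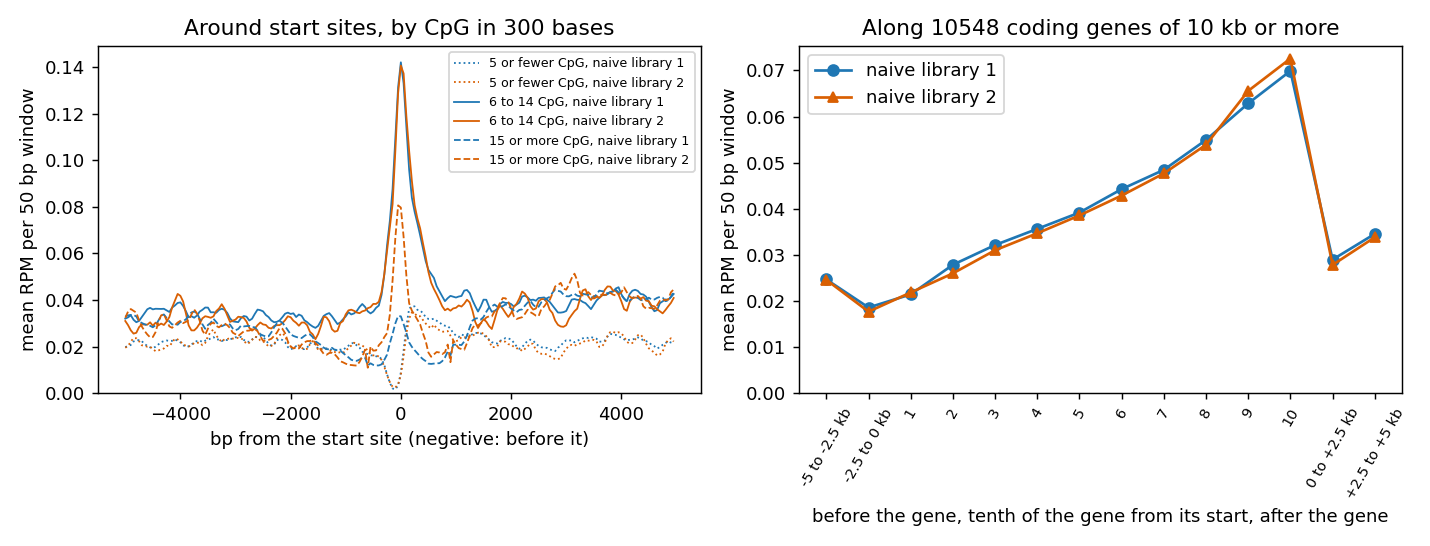
Mean captured signal in RPM per 50 bp window by distance in bp from the start site (left, line style by CpG number in the 300 bases) and along 10548 coding genes of 10 kb or more (right, 10 equal parts of each gene and 2.5 kb steps outside), with library 1 in blue and library 2 in orange. Promoters with 6 to 14 CpG peak at the start in both libraries, those with 5 or fewer dip there, and along genes the signal climbs to 0.0699 and 0.0726 RPM in the last part and falls to 0.0290 and 0.0278 behind the gene.

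The listed germline genes stood at the upper end. Members of this and the other lists were chosen with earlier results of these data known. Their shares describe the genes listed and not the whole class. The list held 26 genes and 25 had a promoter entry (Piwil2 had none). Of these, 23 were captured (92.0%), against 14.1% of all promoters, with a median of 307 reads in library 1 and 795 in library 2. Their FPKM did not reach 1 in any of the 25. Among all genes matched to the RNA, 51.9% of those with no listed promoter read reached it. With 50 or more promoter reads summed over both libraries 19.6% did. Rpl10l had 561 and 2880 reads over the 1500 bp. Dazl followed with 608 and 2799, Fkbp6, needed for meiosis, with 567 and 2201, and Sycp1, a protein of the synaptonemal complex that joins chromosomes in meiosis, with 538 and 2139. Ddx4, a germ cell RNA helicase, had 354 and 2133.

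The lowest captured germline promoters were Smc1b, a meiotic cohesin subunit, with 155 and 125 reads, and Zfp42, a marker of pluripotent cells, with 93 and 82. In RPM, library 1 was the higher at these 2 and at Tex19.1 and Piwil1, and library 2 at the other 19 captured ones. The 2 promoters of the list that were not captured belong to the core pluripotency factors. Pou5f1 had 0 and 18 reads and Nanog 1 and 5, and neither had a read in its 300 bases, which hold 11 and 4 CpG. At these genes and in this window capture was below the level of the meiosis genes, and they were as silent in the RNA, each listed at 0 FPKM.

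Imprinted genes were split. Of 26 genes, 20 had a promoter entry and 14 of these were captured (70.0%), against 14.1% of all promoters. The medians were 178 and 390.5 reads. Plagl1, a zinc finger transcription factor, had 505 reads in library 1 and 1974 in library 2, Nnat 449 and 1558, and Mcts2, a retrogene inside H13, 437 and 1510. H13 itself, the host gene, had no listed read at its own start and 12.4 FPKM, while Mcts2 had 8.05 FPKM. Zrsr1, another imprinted retrogene, had 263 and 1375. Peg3 and Usp29 start back to back, and their promoters share windows, so the 317 and 876 reads of Peg3 and the 332 and 1251 of Usp29 are not independent. The files do not separate the parental copies, so capture from 1 copy cannot be told from capture from both.

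At imprinted genes with several starts the capture lay at particular ones. The most upstream start of Snrpn, a splicing protein gene of the Prader-Willi region, had no listed read, while its start at position 60005199 of chromosome 7 had 159 and 474. Mest, a hydrolase gene, had 77 and 39 reads at its most upstream start and 405 and 1572 at the start at 30738050 of chromosome 6. Gnas, which encodes the alpha subunit of a stimulatory G protein and several other transcripts, had 187 and 485 at its most upstream start, 446 and 2079 at 174327749 and 19 and 125 at 174330006 of chromosome 2, the start with 40 CpG. Grb10, a growth inhibitor, had 1 and 26 reads at the upstream start with 45 CpG and 91 and 73 at the downstream start with 9 CpG. Among the 20, H13, Inpp5f, Rasgrf1 and Snrpn had no listed read at the promoter used.

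Housekeeping promoters held few reads, as most promoters did. Of 19 with an entry, 13 had no listed read in either library, where 62.4% of all promoters had none, and the highest value was 28 in library 1 and 16 in library 2. Their captured share was 5.26%, near the 6.12% of all promoters with 20 or more CpG, and the list's median is 21 CpG. The 1 captured promoter was that of Emc7, a subunit of a membrane protein insertion complex, with 28 and 14 reads, none of them in its 300 bases. Chmp2a had 20 and 0 reads and Sdha, a subunit of succinate dehydrogenase, 0 and 16, so single libraries placed reads where the other had none.

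**Figure D2:**
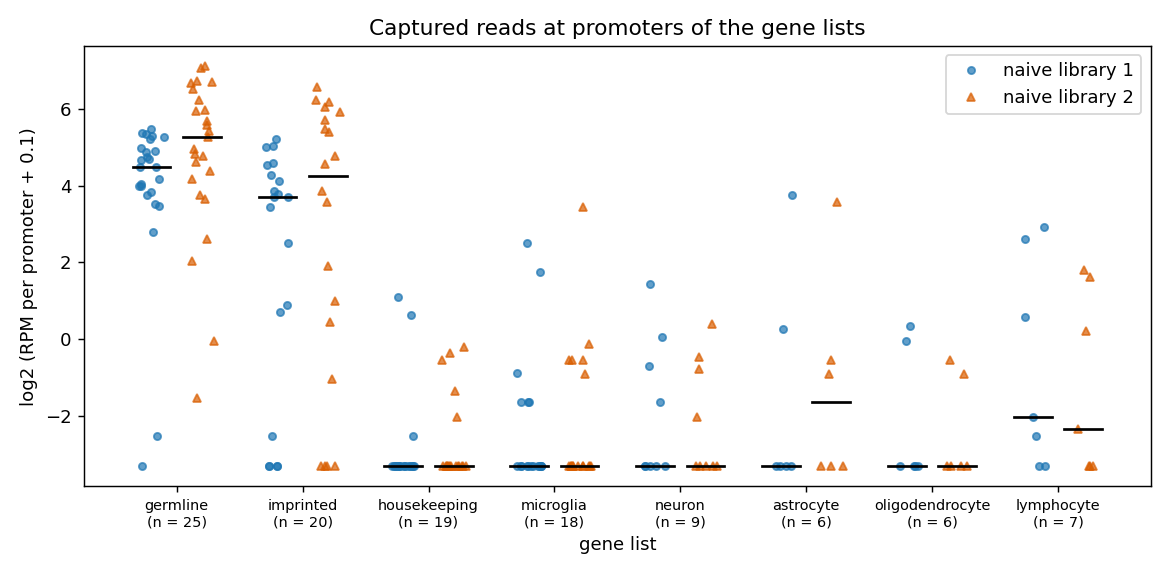
Captured reads per promoter as log2(RPM + 0.1) in library 1 (blue circles) and library 2 (orange triangles) for 8 gene lists, with a black bar at the median. Nearly all germline and most imprinted promoters lie well above the lowest level, where promoters without listed reads are drawn, and the housekeeping and microglia medians lie on it.

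Set against all promoters, those of microglia genes did not stand apart. Their median was 0 reads in both libraries, as over all promoters, and 2 of 18 (11.1%) were captured against 14.1% of all. Their median CpG number was 6. Of all promoters with 6 to 9 CpG 32.1% were captured, and of those with 3 to 5 CpG 17.6%, so the statement depends on the background used. Of the 18, 12 had no listed read (62.4% of all promoters), among them those of Cx3cr1, P2ry12, C1qb, C1qc, the lysosomal protease gene Ctss (4565 FPKM), its inhibitor gene Cst3 (9106 FPKM) and Sall1, a transcription factor of microglia identity. At starts with few CpG, such as P2ry12 (4) and Cx3cr1 (5), a low number of CpG and low methylation cannot be told apart. Cst3, with 13 CpG, holds as many as the captured promoter of Rpl10l, and Sall1, with 18, more than that of Nnat (17). The 2 captured ones were Slc2a5, which encodes a fructose transporter, and Mef2c, a transcription factor. Slc2a5 had 77 and 221 reads, of which 44 and 190 lay in its 300 bases with 15 CpG, and 194.5 FPKM. Mef2c had 45 and 17 reads, of which 3 and 0 lay in the 300 bases, at the most upstream of its 3 starts.

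Genes of the other cell types of the brain were captured in 3 of 21 cases, near the 14.1% of all promoters. None of 6 oligodendrocyte promoters was captured, 1 of 6 astrocyte promoters was (Gfap, the intermediate filament of astrocytes, with 183 and 245 reads and 0.674 FPKM), and 2 of 9 neuron promoters were (Tubb3 with 36 and 25 and Eno2 with 13 and 13). Among lymphocyte genes 3 of 7 were captured: Cd8a, a T cell coreceptor, had 103 and 70 reads, Cd79a, a part of the B cell receptor, 82 and 62, and Cd3e, a part of the T cell receptor complex, 19 and 22. Their FPKM was 0 for Cd8a and Cd3e and 0.0878 for Cd79a. In the 300 bases Cd8a, Tubb3 and Eno2 had no listed read. Gfap had 7 and 14 there, Cd79a 5 and 4, and Cd3e 16 and 11.

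Gene families picked by name lay on both sides of the 14.1% of all promoters or near it. Keratins and keratin-associated proteins, the filament proteins of skin and hair, had 35 of 87 promoters captured (40.2%), led by Krt7 with 293 and 468 reads. Olfactory receptors had 45 of 938 (4.80%), vomeronasal receptors 2 of 320 and zinc finger genes named Zfp 22 of 330 (6.67%). Both receptor families have a median of 1 CpG in the 300 bases. Hox genes, which pattern the body axis, had 3 of 22 (13.6%), near the share of all promoters, with Hoxa5 highest at 145 and 76 reads. Of 54 ribosomal protein genes 6 were captured (11.1%), and the highest were Rpl10l and another testis-expressed copy, Rpl39l, with 254 and 815 reads. Of 53 histone genes 2 were captured, H2ac1 with 555 and 1387 and H2bc1 with 524 and 1315, neighbours whose promoters overlap. Defensins had 5 of 45 (11.1%).

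The 10 promoters with most reads by the lower of the 2 libraries included 4 of the germline list (Dazl, Fkbp6, Rpl10l and Sycp1). The others were 3110070M22Rik, Taf7l2, Gm14329, Gm43915, H2ac1 and Trim52. 3110070M22Rik had 2687 and 16143 reads, and a window inside this promoter was left out for over 2000 reads, so it belongs to a pile-up. The remaining 5 had between 548 and 761 reads in library 1 and between 1107 and 2107 in library 2. Of the 8 among the 10 with an FPKM value, none reached 1. Among all genes with 50 or more promoter reads summed over both libraries, 19.6% reached it.

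Promoter capture was set beside the naive RNA for 18133 genes matched by symbol. With no listed read at the promoter the median was 1.35 FPKM, with 1 to 9 reads summed over both libraries 0.311, with 10 to 49 reads 0.130 and with 50 or more 0.0103. The order was also seen in 2 of 3 CpG classes. Of 5986 genes with 15 or more CpG in the 300 bases and no listed read 78.7% had at least 1 FPKM, of 883 with 1 to 9 reads 62.0%, of 1188 with 10 to 49 reads 54.4% and of 364 with 50 or more 38.5% (Wilson 95% interval 33.6% to 43.6%, which covers counting error only). Genes with 6 to 14 CpG gave 54.7%, 37.0%, 29.1% and 15.7% in the same order. Genes with 5 or fewer CpG did not follow it, with 11.6%, 13.2%, 12% and 11.1%. The RNA comes from 1 library, so these values have no replicate check.

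Counting reads close to the start gave lower shares. The read classes were kept the same over 300 bases as over 1500 bp, which is a stricter cut. Nearness to the start and the stricter cut were therefore not separated. Counted in the 300 bases alone, 75.4% of 7663 CpG-rich genes without a listed read had at least 1 FPKM, 44.5% of 366 with 1 to 9 reads, 30.7% of 267 with 10 to 49 and 12% of 125 with 50 or more (15 genes). Of those 125, 3 reached 10 FPKM (Slc2a5, Clcn4 and Gnas), against 2666 of the 7663 without a listed read. Clcn4, a chloride and proton exchanger, had 47.4 FPKM with 2 reads in library 1 and 175 in library 2, so its capture rests on library 2. Gnas had 26.2 FPKM and several starts. Some other strongly expressed CpG-rich genes counted as captured had all their reads outside the 300 bases, while Cd82, a membrane protein gene with 53.9 FPKM, had all of its 11 and 14 reads within them. Itm2c had 23 and 40 reads with 287.5 FPKM, Tgfb1, a growth factor, 105 and 282 with 54.6 FPKM, and Ssr3 128 and 319 with 38.3 FPKM, each with no listed read in the 300 bases.

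Beyond promoters, the captured reads lay mostly in genes. Over the 18 chromosomes with promoter entries, genes outside promoters took 47.0% of the length and 65.6% of reads in library 1 and 63.4% in library 2. Promoters took 1.76% of the length and 2.49% and 2.78% of reads, and the space between genes 51.3% of the length and 32.0% and 33.8% of reads. Gene bodies therefore held 1.395 and 1.35 times and the space between genes 0.623 and 0.659 times their part of the length. With the left-out windows kept, genes held 33.7% of reads on average in place of 64.5%.

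Within genes the signal climbed from start to end. Over 10548 coding genes of at least 10 kb, reads per window were 0.295 and 0.453 in the first of 10 equal parts, 0.539 and 0.799 in the fifth and 0.961 and 1.503 in the last. In the 2.5 kb behind the gene they were 0.399 and 0.577, and in the 2.5 kb before it 0.256 and 0.367. Of 9395 genes with at least 20 reads in both libraries, 5826 (62.0%) held more reads in the last 5 than in the first 5 parts in both libraries and 2397 (25.51%) held fewer in both. The CpG number along genes was not analysed here, since no genome sequence was used.

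The level in the body and its slope went differently with expression. The median gene listed at 0 FPKM had 3.30 reads per kb in library 1 and 4.19 in library 2. Genes above 0 and under 1 FPKM had 8.16 and 9.56, genes with 1 to 10 FPKM 8.98 and 10.8, genes with 10 to 100 FPKM 8.37 and 9.48, and the 132 genes with 100 FPKM or more 5.46 and 4.80. The interquartile ranges of the classes overlapped: in library 1 they spanned 0.512 to 9.55 reads per kb at 0 FPKM and 3.48 to 18.1 at 1 to 10 FPKM. The share of body reads in the last 5 parts went up through all 5 classes, from 56.7% and 55.8% at 0 FPKM through 59.4% and 59.6%, 62.8% and 63.8%, and 66.0% and 67.1% to 76.6% and 77.4% at 100 FPKM or more.

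Captured runs, that is, unbroken rows of adjacent windows with reads, were short. Library 1 had 442058 and library 2 had 511399, with a median of 4 windows (200 bp) in both and a 99th percentile of 14 and 12 windows. The commonest length was 3 windows. The median gap between runs was 1950 bp in library 1 and 2300 bp in library 2. Runs of 30 windows or more numbered 170 and 103, and the longest reached 4150 bp and 3850 bp. Since windows below the listing minimum are missing, these are lengths above that minimum and not the lengths of methylated stretches.

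Many of the short runs carried 1 constant count. Runs with the same number of reads in every window made up 33.9% of runs in library 1 and 54.3% in library 2, but 4.50% and 10.5% of the reads. Runs flat at exactly 3 reads, the listing minimum of library 2, were 24.0% of its runs and 2.45% of those of library 1. Flat runs met a run of the other library in 51.1% and 43.4% of cases, uneven ones in 85.6% and 90.2%. Height separated runs more sharply. Of runs whose highest window had 2 to 4 reads, 61.4% and 44.2% met a run of the other library, and of those with 10 to 19 reads 98.2% and 99.4%.

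**Figure D3:**
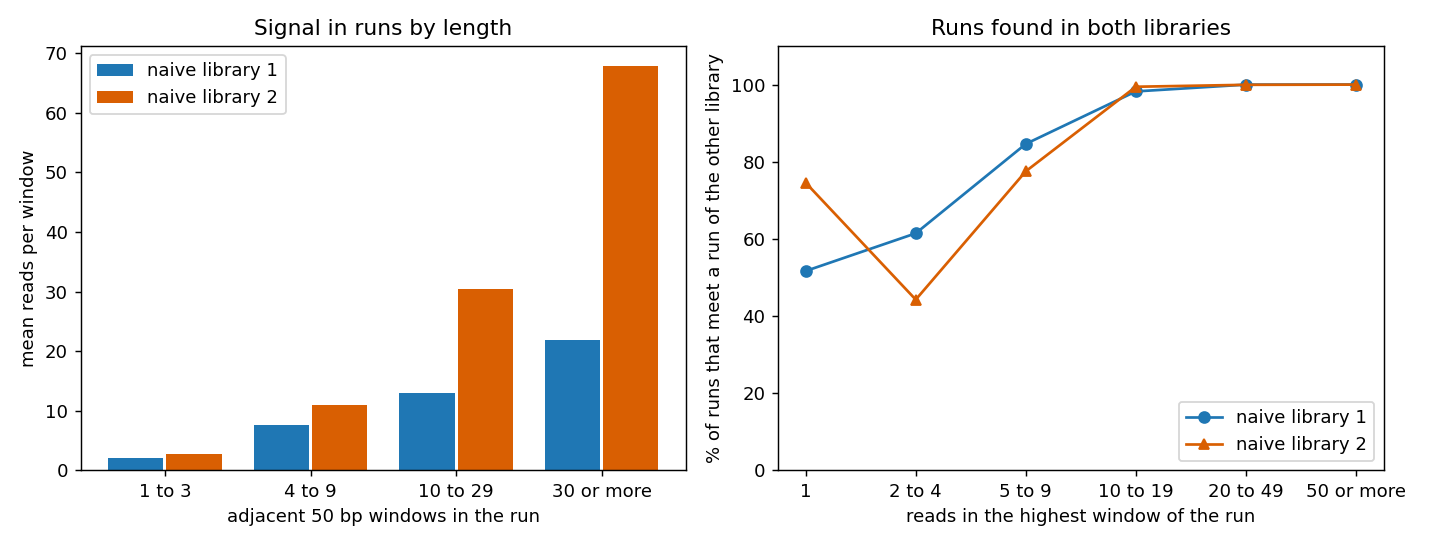
Mean reads per window by the number of adjacent windows in a run (left, bars from 0) and the percent of runs that meet a run of the other library by the reads in the highest window of the run (right), for library 1 (blue) and library 2 (orange). Reads per window climb with length from 2.13 to 21.9 in library 1 and from 2.79 to 67.9 in library 2, and of runs with 10 to 19 reads at their highest 98.2% and 99.4% are met. Runs of 1 read are listed only where another library passed its minimum.

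The longest runs over windows covered in both libraries lay in genes in each of the 10 cases. The first was in Plec, which encodes the cytoskeletal linker plectin, at chr15:76178451-76182300 with 77 windows and 2686 and 11677 reads. Elfn1, a synaptic adhesion gene, followed with 56 windows at chr5:139970951-139973750 and 1092 and 2180 reads, near the gene's end. Gnas had 55 windows at chr2:174298351-174301100 and Cdkn1c, an imprinted inhibitor of cell division, 48 windows at chr7:143458801-143461200 with 529 and 1410 reads. Others were in Celsr2 (an adhesion receptor), Bcl11b (a transcription factor), the adjoining Grin3b and Tmem259, Spen (a repressor of transcription) and Bend3. Whether they lie in exons or introns was not analysed here.

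Longer runs lay more often in genes and closer to their ends. Of shared runs of 1 to 3 windows 59.5% lay in genes outside promoters, of 4 to 9 windows 62.6%, of 10 to 29 windows 66.0% (6776 of 10259) and of 30 or more 84.3% (70 of 83). Longer runs also touched promoters more often, with 2.85%, 2.55%, 4.59% and 8.43% (7 of 83) in the same order. A longer run meets a gene or promoter more easily by its length, which was not accounted for. In genes with a known strand, the last of 5 equal parts of the gene held 23.4% of the runs of 1 to 3 windows, 27.2% of those of 4 to 9, 35.9% of the 5531 of 10 to 29 and 36.9% of the 65 of 30 or more, where the first held 18.2%, 14.6%, 11.3% and 13.8%. Runs of 10 or more windows with the most reads per window were of another kind. Of the 10 highest, 5 lay within 1600 bp of windows left out for over 2000 reads, among them 2 on chromosome 17 with 11 and 20 windows and 2 near the start of chromosome 9. The run at chr17:39846701-39847700, over a ribosomal RNA-related gene (Rn18s-rs5), had 8.41 RPM per window in library 1 and 49.04 in library 2, and that in Cdk8, a kinase of the Mediator complex, 6.12 and 37.3. In Aida and in a run on chromosome 12 near Kcnh5 library 1 was the higher, with 9.95 against 8.34 and 16.2 against 7.81.

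Over chromosomes, reads did not follow length. The ratio of the share of reads to the share of length was highest on chromosome 17 (1.27 and 1.32), chromosome 19 (1.29 and 1.25) and chromosome 5 (1.26 and 1.23), and lowest on chromosome 14 (0.739 and 0.745), chromosome 3 (0.772 and 0.803) and chromosome 1 (0.787 and 0.790). With the left-out windows kept, chromosome 17 had a mean ratio of 0.755 in place of 1.29. Chromosomes 17 and 19 traded places between libraries and cannot be ordered. Over the 19 chromosomes the 2 libraries correlated with r = 0.987 (rho = 0.990), and the ratio correlated with coding genes per Mb with rho = 0.704 and 0.675, as a description, since the chromosomes of 1 library share its depth and capture.

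Along the chromosomes the distal end was richest once the 366 windows were left out. With them kept, the last of 10 equal parts held 8.87% of reads on average, below its 10% of the length, in place of 17.4%. Each chromosome was divided into 10 equal parts from its first to its last covered window; mouse chromosomes have the centromere at the start. The last part held 17.9% of reads in library 1 and 17.0% in library 2, the ninth 13.9% and 13.4%, and the first 8 between 7.42% and 10.02%. The last part holds 12.1% of coding genes. It lay above the mean of its own chromosome in 17 of 19 chromosomes in both libraries and was the highest of the 10 in both on 10 chromosomes. The highest values were on chromosome 16, at 2.67 and 2.38 times the chromosome's mean, and chromosome 4, at 2.48 and 2.47. The exceptions were chromosome 17, at 0.814 and 0.812, where the third part was highest, and chromosome 18, at 0.985 and 0.980, where the ninth was. On chromosome 7 the second part and on chromosome 19 the first part was the highest.

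**Figure D4:**
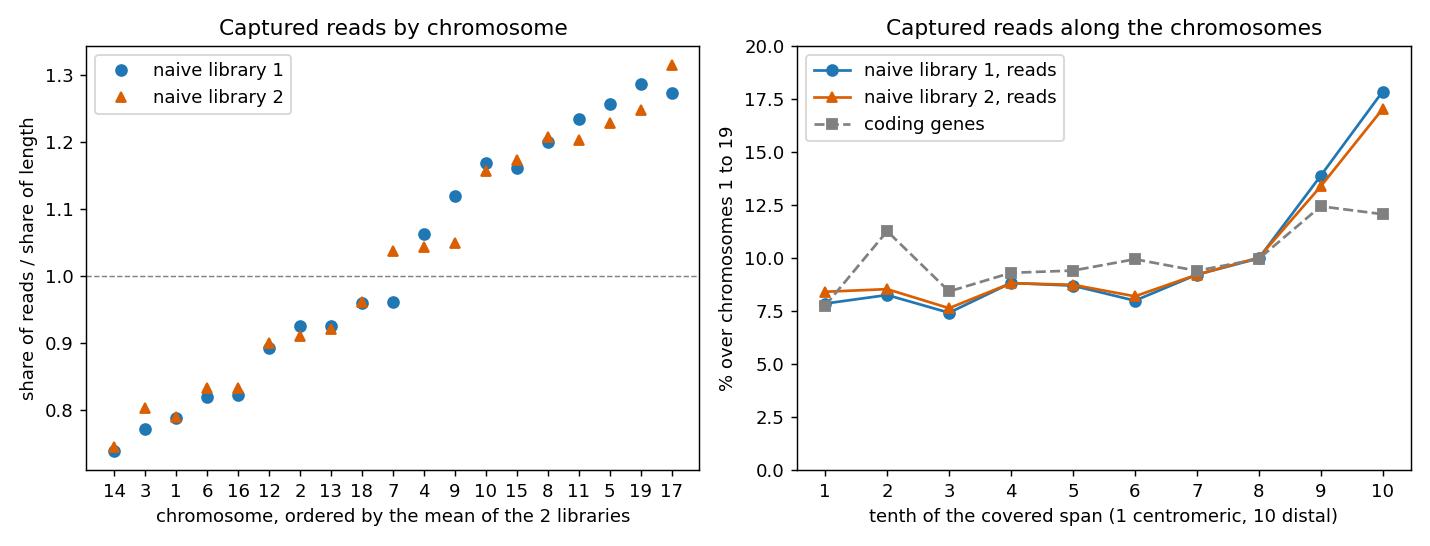
Share of captured reads over share of length for chromosomes 1 to 19 (left, dashed line at 1) and percent of reads in each of 10 equal parts of the covered span, summed over the chromosomes (right), for library 1 (blue circles) and library 2 (orange triangles), with coding genes in grey. The 2 libraries lie farthest apart on chromosome 7 (0.962 and 1.04) and chromosome 9 (1.12 and 1.05), and reads climb to 17.9% and 17.0% in the distal part where coding genes reach 12.1%.

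In 2413 bins of 1 Mb, the median was 302 RPM in library 1 and 309 in library 2, with the 10th percentile at 87.5 and 124 and the 90th at 914 and 861. Bins without a coding gene had medians of 98.96 and 147 RPM, bins with 1 to 4 had 182 and 214, with 5 to 9 had 390 and 383, with 10 to 19 had 535 and 487 and with 20 or more had 667 and 643. Library 1 thus spread further between gene-poor and gene-rich bins than library 2. The rank correlation with the number of coding genes was 0.634 and 0.623.

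Of the 5 highest bins, 4 had 23 to 54 coding genes. The highest bin, the 1 Mb from position 3000001 of chromosome 9, had 4519 and 2127 RPM with 3 coding genes. Left-out windows lay inside it, and their reads are not in these values. Next came the bin from 76000001 of chromosome 15, with 52 coding genes including Plec, Scrib and Eppk1 and 2251 and 2985 RPM, and that from 114000001 of chromosome 5, with 24 coding genes including Acacb and Foxn4 and 2416 and 2253 RPM. Bins from 80000001 of chromosome 10, which holds Abca7, Gpx4 and Stk11, and from 115000001 of chromosome 5 had 1995 and 2370 and 2196 and 2147 RPM. The lowest bin with coding genes was that from 176000001 of chromosome 2, with 9 genes such as Zfp967 and Zfp973 and 3.13 and 5.26 RPM. The bins from 3000001 and 5000001 of chromosome 14, with 15 and 13 coding genes, mostly known by Gm numbers, had 10.3 and 11.7 and 6.25 and 8.74 RPM. How the authors placed reads that match several sites is not stated in the labels.

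Agreement of the 2 libraries grew with the size of the bin and with the number of reads. Over windows with reads in at least 1 library, Pearson's r was 0.699 and Spearman's rho 0.369 (n = 2580415). In bins of 10 kb they were 0.778 and 0.807 (n = 200761) and in bins of 1 Mb 0.960 and 0.977 (n = 2413). These are descriptions, because neighbouring windows share fragments, and the low rho over windows includes the missing windows below the listing minimum. Of the covered windows, 1414372 were shared, which is 72.8% of those of library 1 and 68.9% of those of library 2, and they held 89.6% and 90.03% of the reads.

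The share found in the other library is complete only for windows at or above a library's own listing minimum. Of 1078829 windows of library 1 with at least 4 reads 86.1% had a read in library 2, and of 1547287 windows of library 2 with at least 3 reads 65.1% had one in library 1. At exactly 3 reads in library 2, its commonest count (26.1% of its windows), the share was 34.0%. At 5 to 9 reads it was 83.6% for library 1 and 82.0% for library 2, and at 10 to 19 reads 98.0% and 99.2%.

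The fold range between window levels also differed between the libraries. Where the mean over both was 0.2 to 0.4 RPM per window library 2 was lower than library 1, with a log2 ratio of -1.08. The ratio was -0.20 at 0.8 to 1.6 RPM, 0.40 at 1.6 to 3.2, 1.05 at 3.2 to 6.4 and 1.33 above 6.4. At up to 0.1 RPM it was 1.02, in windows of which 13.3% were covered in both. The top 10% of windows held 39.4% of the reads of library 1 and 58.4% of those of library 2. Fold differences between weak and strong windows are thus larger in library 2 above 0.4 RPM.

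**Figure D5:**
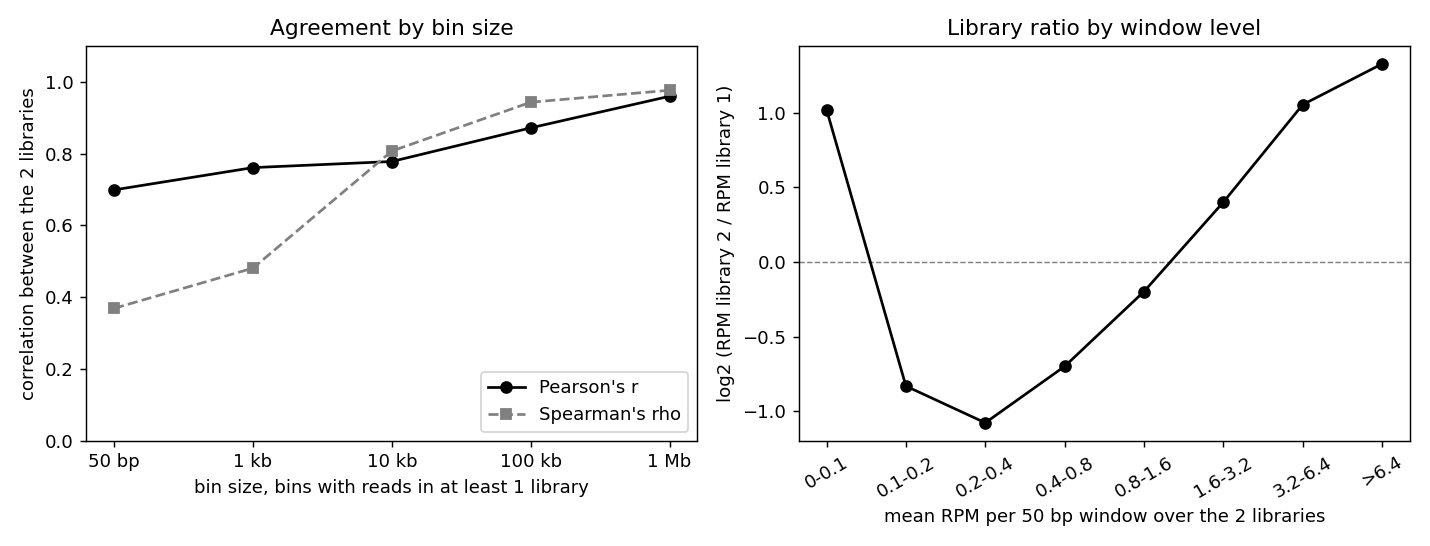
Correlation between library 1 and library 2 by bin size, over bins with reads in at least 1 library (left), and log2 of the ratio of RPM in library 2 to library 1 by the mean RPM per 50 bp window (right, dashed line at 0). Spearman's rho climbs from 0.369 in windows to 0.977 in bins of 1 Mb, and the ratio climbs from -1.08 at 0.2 to 0.4 RPM to 1.33 above 6.4 RPM.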

How the data were processed

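MiGS values were deposited as signal per 50 bp window; the authors had divided whole reads by 1 factor per library (100% of naive values came out whole within 0.001). The submitters' processing notes name the build mm10 and, with neither role nor version, edgeR, featureCounts, TopHat and Bowtie2. The RNA table gives deposited counts and FPKM values computed by the authors, per the file headers. Windows listed in none of the files were taken as 0 reads, and the libraries from mice with EAE were read only to test which windows are listed.

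Reads were recovered as value over the smallest value, windows of over 2000 summed reads were left out, and RPM uses the remaining total. Promoters came from RefSeq (GRCm38.p6, the same build). No test was run, since there is 1 group of 2 libraries, and correlations carry no p. Members and lists were chosen with earlier results of these data known. Named are the 10 promoters highest by the lower library, up to 4 highest and 2 lowest of each list, the 10 longest and 10 highest runs, the 5 highest and lowest bins, and genes that show a split; the last were chosen after their values were seen. An item that this rule names is not reported here. Python 3.11.15, numpy 2.4.6, pandas 2.3.3 and scipy 1.17.1 were used, and the steps were tested on simulated data.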

Additional observations from a re-analysis of the deposited data

Results flagged for a closer look

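The 366 windows left out for over 2000 summed reads held 54.8% of the window reads of library 1 and 43.2% of those of library 2. They lay on 10 chromosomes. A stretch of 53 windows on chromosome 2 (chr2:98662151-98667400) held 85.8% and 85.6% of these reads. The 75 windows on chromosome 17, between 39843051 and 39848800, held 15565 reads in library 1 and 244269 in library 2. No input library was used here, so captured and merely abundant sequence could not be told apart there.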

How the results depend on the processing

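Of 103 alternatives, 65 kept a value within its limit and 38 moved. The limit was the spread of the 2 libraries, 1.5 times for counts and 0.005 for correlations between the libraries. The share of CpG-rich genes with at least 1 FPKM was judged by the Wilson interval given above. For values averaged over the 2 libraries, leaving 1 out gives the other library's own value. That value cannot leave the spread of the same 2 libraries, so these alternatives, counted among the 65, test nothing. The shared share of covered windows, 70.9% on average, was 58.6% with at least 3 reads, 68.0% with library 2 thinned and 58.9% at each library's own listing minimum. With all windows kept, chromosome 17 had a ratio of 0.755 (main 1.29), the distal part 8.87% of reads (17.4%), runs of 10 or more windows 60.7% (23.4%), genes 33.7% (64.5%), and r was 0.992 over windows and 0.9997 in 1 Mb bins, so these values depend on leaving out the 366 windows. With covered windows in place of reads, chromosome 17 had 1.21, the distal part 15.8% and the rank correlation with coding genes 0.608 (0.629); bins of 5 Mb gave 0.671. The median run was 3.5 windows with thinning. Runs of 10 or more held 17.6% with at least 3 reads, 14.3% with at least 5, 22.3% thinned, 16.5% at the own minimum, 27.5% with gaps of 1 window joined and 38.5% with gaps of up to 4. Over windows the correlation was 0.576 for log2(RPM + 0.1), 0.369 by rank, 0.679 at the own minimum and 0.742 without windows within 1000 bp of left-out ones; in 1 Mb bins it was 0.973, 0.977 and, without those windows, 0.975. Genes took 66.0% of reads with the narrow promoter of 300 bases. Captured promoters numbered 5494 with at least 3 reads, 2016 with at least 30 and 1077 with the narrow promoter, and housekeeping ones 0 under both of the latter and 2 to 3 with 1 library left out. CpG-rich genes with 50 or more reads and at least 1 FPKM, 38.5% over both libraries, were 12% with the narrow promoter. In that shorter stretch 50 reads are also a stricter cut. With 1 library left out they were 29.6% to 31.3%. There 50 reads were needed in the remaining library alone, a stricter cut. The own minimum, the 1000 bp margin and the highest start of a gene were chosen after seeing the data. The cause of these moves was not tested. No paired analysis was possible because no groups were compared.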
